A study of Mus musculus with 13 samples.

Results

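HMB (beta-hydroxy-beta-methylbutyrate, given in the diet as its calcium salt) was compared with no HMB in Panc02 tumors of lean and diet-induced obese (DIO) mice, and the HMB difference was averaged over both diets. All 13 of the 13 arrays entered the comparison. They came from 4 groups of male C57BL/6 mice, with 1 subcutaneous tumor per mouse. Lean mice ate a control diet without HMB (control, n = 3) or with it (control + HMB, n = 3), and obese mice ate a high fat diet without HMB (DIO, n = 3) or with it (DIO + HMB, n = 4). For each gene the mean of the control tumors was subtracted from that of control + HMB, the mean of the DIO tumors from that of DIO + HMB, and the 2 differences were averaged, so that each diet counted equally. All 4 groups carried the same transplanted mouse pancreatic cancer line, grown under the skin and not in the pancreas, and the RNA was of whole tumors. The sample labels give neither the age of the mice nor whether a tumor had been exposed to gemcitabine or its vehicle. The tumors were separate animals, so the spread between arrays holds both animal and technical variation.

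HMB is made in the body from the branched-chain amino acid leucine, through its keto acid, and is sold as a supplement to preserve muscle. In muscle it is known for stimulating protein synthesis through the mTORC1 kinase complex and for limiting breakdown by the proteasome. HMB can also be turned into HMG-CoA, the compound from which cholesterol and the prenyl groups of small GTPases are made. Diets rich in fat enlarge adipose tissue and raise inflammatory signals such as interleukin-6, which acts through the transcription factor STAT3. A tumor of this kind holds cancer cells, fibroblasts, vessels and many macrophages and lymphocytes, and in bulk RNA fewer cells of a type and less RNA per cell cannot be told apart.

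The arrays (Affymetrix Mouse Gene 2.1 ST) gave log2 values for 22180 genes, each read by 1 probe set. Ductal keratins were present in every tumor, with Krt18 between 8.99 and 9.97, while the ductal chloride channel Cftr averaged 1.41 and acinar enzymes averaged 2.96 with 4 of 9 above the low-signal level. That level, 3.03, was the 95th percentile of the means of 1105 odorant receptor genes, which a tumor should hardly express, and 14284 genes (64.4%) lay above it. Single tumors stood out in genes of other cell types: DIO + HMB replicate 1 in B cell genes, DIO + HMB replicate 2 in adipocyte genes and DIO + HMB replicate 3 in skeletal muscle genes, while DIO replicate 3 was low in many stromal and immune genes. The width of the arrays, meaning the SD over all genes within an array, differed with HMB too, and a difference or median fitted with the width as a covariate is called width-adjusted here. It is given where it was over 1.5 times larger or smaller than the unadjusted value, or of the other sign. The width comes from the same genes. In lean tumors it ran from 2.51 to 2.54 without HMB and from 2.57 to 2.62 with it, while in DIO the widths overlapped. The covariate can therefore not be fully separated from HMB, and width-adjusted values carry no SE here. They describe how a value depends on the fit and are not corrected HMB effects.

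No gene passed the test of the averaged HMB difference (0 of 22180, 0%; limma with Benjamini-Hochberg adjustment over all genes, threshold 0.05). The lowest adjusted p was 0.213, shared by 83 genes. An unadjusted p under 0.05 was found for 3072 genes, where 1109 would be 5% of all: 1797 were higher with HMB (8.1% of all genes) and 1275 were lower (5.75%). Of those 3072 genes, 2988 had the same direction in both diets, 1752 higher and 1236 lower. Choosing genes by the p of the averaged difference favors a shared direction, so this count does not test whether the diets agreed. Over all genes regardless of p, 7120 (32.1%) were higher in both diets, 6391 (28.8%) were lower in both and 8669 had opposite directions. The median difference over all genes was 0.0103 on the log2 scale, and its median size of 0.135 was close to the median standard error of 0.130. A gene at that median error would have needed a difference of 1.06 to pass alone.

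A stricter description counted genes whose HMB tumors did not overlap the un-supplemented tumors in either diet. There were 140 such genes higher with HMB (0.631%) and 92 lower (0.415%), and 52 (0.234%) separated in both diets in opposite directions. Of the 140 higher genes 135 lay above the low-signal level, against 44 of the 92 lower genes. Across all genes the HMB difference in the control diet and that in DIO had a Pearson r of 0.292. The correlation was 0.321 among genes above the low-signal level and 0.0442 among those at or below it. Genes share arrays and are not replicates, so these correlations describe the tables only.

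**Figure D1:**
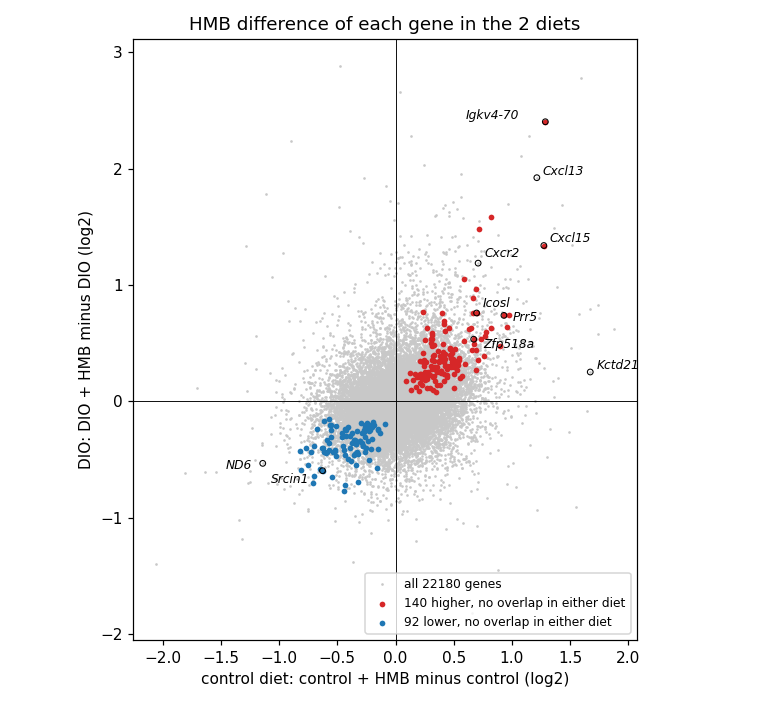
Each point is 1 of 22180 genes, with the log2 HMB difference in the control diet on the x axis and that in DIO on the y axis; the colored points are genes whose HMB and un-supplemented tumors did not overlap in either diet, in the same direction. The 140 higher genes lie in the upper right and the 92 lower genes in the lower left, among them Cxcl15 with an average of 1.31.

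By a rule that takes, among genes of the same direction in both diets, those of lowest p in the averaged fit and those of widest gap between the groups, 34 genes were described, 17 higher and 17 lower, with averaged differences of 0.34 to 1.31 and of -0.84 to -0.24 on the log2 scale. Their adjusted p values ran from 0.213 to 0.245, so none passed. The tumors did not overlap in either diet for 9 of the 17 higher and 12 of the 17 lower genes. Since the rule used these differences and gaps, the values are given as a description.

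Cxcl15 (lungkine), a mouse chemokine that attracts neutrophils, had the largest averaged difference among the 34. It read 6.73, 6.88 and 6.82 in the control tumors and 7.81, 7.44 and 9.01 in control + HMB. In DIO it read 6.55, 7.25 and 5.22, against 7.66, 7.99, 7.54 and 7.52 in DIO + HMB. Every HMB tumor was above every un-supplemented tumor of its diet, and DIO replicate 3 was the lowest of all. The averaged difference was 1.31 ± 0.31 (SE), or 2.47-fold, with an adjusted p of 0.227 by limma, and the width-adjusted difference was 1.97.

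Cxcr2, the receptor through which neutrophils follow CXC chemokines, was higher by 0.95 ± 0.17. Its values were 4.26, 5.06 and 4.02 in control against 5.36, 5.12 and 4.98 in control + HMB, and 4.77, 4.53 and 4.16 in DIO against 5.97, 5.62, 5.59 and 5.51 in DIO + HMB. The groups were apart in DIO, but control replicate 2 lay above the lowest control + HMB tumor. Ligands of the same receptor from the chemokine list pointed the same way, Cxcl5 by 0.72 ± 0.20 and Cxcl3 by 0.46 ± 0.20, the latter at 0.30 without DIO replicate 3. Cxcl5 read 7.30, 7.48 and 8.29 in control and 8.36, 8.18 and 7.88 in control + HMB, which overlapped. In DIO it read 7.98, 7.80 and 6.95, all below the 8.48, 8.77, 8.22 and 8.78 of DIO + HMB.

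Icosl, the ligand that stimulates T cells through ICOS, was higher by 0.73 ± 0.18 (limma adjusted p = 0.241). Its values were 6.57, 6.59 and 6.90 in control against 7.15, 7.78 and 7.22 in control + HMB, and 6.95, 6.87 and 6.76 in DIO against 8.40, 7.34, 7.46 and 7.27 in DIO + HMB. Neither diet showed overlap, and DIO + HMB replicate 1 stood above the other tumors. Sla, a Src-like adaptor that dampens antigen receptor signaling, was higher by 0.55 ± 0.10. It read 8.06, 7.60 and 7.80 in control against 8.31, 8.67 and 8.45 in control + HMB, and 7.99, 7.92 and 8.07 in DIO against 8.53, 8.42, 8.26 and 8.53 in DIO + HMB, with no overlap. Nlrp10, a NOD-like receptor family member, was higher by 0.71 but had a mean at or below the low-signal level.

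Prr5, a component of the mTORC2 kinase complex, was higher by 0.84 ± 0.16, or 1.78-fold. It read 5.20, 6.19 and 5.61 in control and 6.59, 6.44 and 6.78 in control + HMB. DIO tumors read 6.46, 5.81 and 6.29, and in DIO + HMB 7.18, 6.98, 6.75 and 6.78, so that the groups did not overlap in either diet. Ggps1, which makes geranylgeranyl diphosphate for protein prenylation, was higher by 0.50, of which 0.79 in the control diet and 0.21 in DIO.

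Zfp518a, a zinc finger protein, had little spread within groups. It read 6.21, 6.20 and 6.27 in control against 7.03, 6.90 and 6.77 in control + HMB, and 6.19, 6.07 and 6.08 in DIO against 6.75, 6.50, 6.89 and 6.44 in DIO + HMB. All 7 HMB tumors were above all 6 un-supplemented tumors, and the averaged difference was 0.60 ± 0.09, or 1.52-fold. Other nuclear proteins in the higher group were Zbtb10 (0.86 ± 0.19) and Zbtb24 (0.67), both zinc finger proteins, Tox4 (0.48), an HMG box protein, and Smarcal1 (0.48), a helicase that rejoins DNA strands at stalled replication forks. Zbtb10 and Tox4 did not overlap in either diet. The width-adjusted difference was 0.24 for Tox4 and 0.23 for Smarcal1.

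Kctd21, an adaptor of cullin 3 ubiquitin ligases, differed mainly in lean mice. It read 3.81, 3.75 and 4.21 in control and 5.33, 6.04 and 5.41 in control + HMB, a difference of 1.67. In DIO the values were 5.32, 5.08 and 5.16, against 5.02, 5.65, 5.58 and 5.52 with HMB, which overlapped and differed by 0.25. The un-supplemented DIO tumors thus lay just below the control + HMB tumors. The other higher genes were Arel1 (0.34, or 0.11 when its probe sets were averaged), a HECT ubiquitin ligase, Bbs4 (0.70), part of the BBSome that carries cargo to cilia, Abhd14b (0.83) and Ttpal (0.46). Width-adjusted, Kctd21 was at 0.56, Arel1 at 0.20, Bbs4 at 0.25 and Abhd14b at 0.40.

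**Figure D2:**
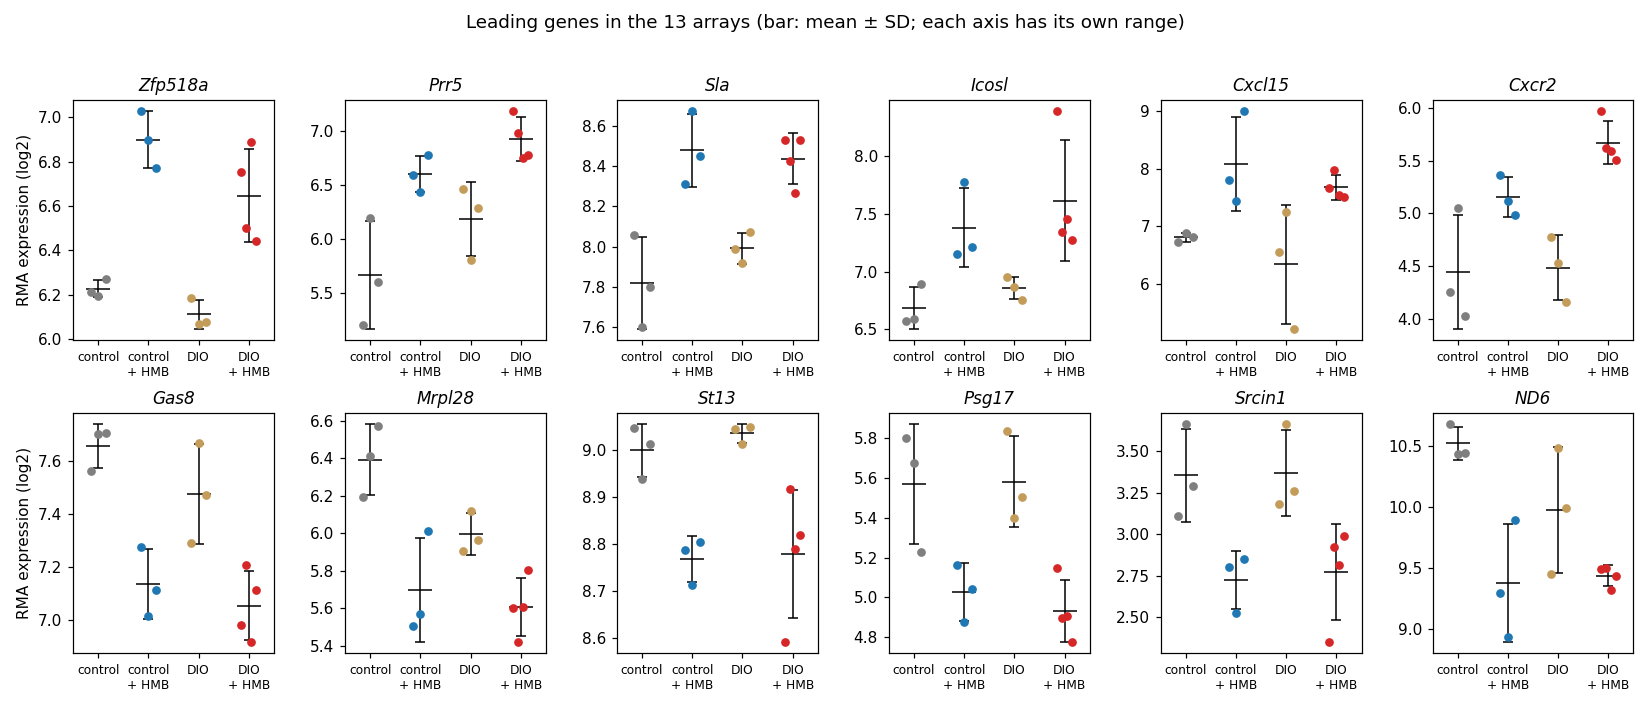
Log2 value of 12 of the described genes in each tumor, by group, with bars for the mean ± SD; each panel has its own y axis. In Zfp518a, Cxcl15, Prr5 and Icosl every HMB tumor lies above the un-supplemented tumors of the same diet, and in Gas8 and Mrpl28 every one lies below them.

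The 250 bases before the annotated start are printed for 3 higher genes that separated in both diets (RefSeq, GRCm38.p6). Taking the smaller gap of the 2 diets, these 3 had the widest gaps among the 17 higher genes described above. Capitals mark matches on either strand. The GC box was searched as GGGCGG, to which the factor Sp1 binds. The TATA box, which positions the polymerase, was searched as TATAAA. The CCAAT box was searched by the letters of its name, and each motif was searched on its own.
Cxcl15, chr5:90794284-90794533, plus strand: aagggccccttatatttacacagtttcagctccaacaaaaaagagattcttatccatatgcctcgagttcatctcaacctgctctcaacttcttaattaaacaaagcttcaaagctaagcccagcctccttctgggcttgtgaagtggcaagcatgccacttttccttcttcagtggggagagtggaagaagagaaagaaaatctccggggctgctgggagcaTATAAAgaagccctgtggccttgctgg
Icosl, chr10:78069118-78069367, plus strand: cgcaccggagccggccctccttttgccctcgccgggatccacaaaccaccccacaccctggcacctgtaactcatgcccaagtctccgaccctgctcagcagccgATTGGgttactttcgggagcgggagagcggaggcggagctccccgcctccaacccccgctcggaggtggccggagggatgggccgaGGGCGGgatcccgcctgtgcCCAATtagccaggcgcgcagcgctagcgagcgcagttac
Zfp518a, chr19:40894455-40894704, plus strand: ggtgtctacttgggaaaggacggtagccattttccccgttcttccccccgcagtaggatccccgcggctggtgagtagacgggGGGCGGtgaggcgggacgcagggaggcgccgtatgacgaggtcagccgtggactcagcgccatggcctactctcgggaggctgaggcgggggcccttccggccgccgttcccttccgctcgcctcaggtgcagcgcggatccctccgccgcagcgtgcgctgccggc
The Cxcl15 window held 1 TATA box close to the start, that of Icosl 1 GC box and 2 CCAAT boxes, and that of Zfp518a 1 GC box. Promoters were at hand for 16990 genes, among them 116 of the 140 higher and 63 of the 92 lower genes that separated in both diets. A GC box was found in 59.5% of the higher, 30.2% of the lower and 46.2% of all promoters, and a TATA box in 5.17%, 14.3% and 13.2%. CCAAT boxes stood in 43.1%, 38.1% and 38.7%. An E-box (CACGTG) stood in 7.76%, 6.35% and 7.83%, and the STAT site TTCNNNGAA, at which interleukin-6 signaling can act, in 6.03%, 11.1% and 7.82%. A match describes the letters of the window only, and the higher and lower genes also differed in signal level, as given above.

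Among the 17 lower genes, Gas8, a subunit of the regulatory complex of ciliary dynein, read 7.56, 7.70 and 7.70 in control and 7.28, 7.01 and 7.11 in control + HMB. DIO tumors read 7.29, 7.67 and 7.47, against 6.98, 7.20, 6.92 and 7.11 in DIO + HMB. Neither diet overlapped, and the averaged difference was -0.47 ± 0.09. Mrpl28, a protein of the mitochondrial ribosome, differed by -0.54 ± 0.11. It read 6.19, 6.41 and 6.57 in control against 5.50, 5.57 and 6.01 in control + HMB, and 5.90, 6.12 and 5.96 in DIO against 5.60, 5.42, 5.60 and 5.80 in DIO + HMB, again without overlap.

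ND6, a complex I subunit encoded by the mitochondrial genome, had the largest lower difference, -0.84 ± 0.18, made of -1.14 in the control diet and -0.53 in DIO. It read 10.68, 10.44 and 10.44 in control and 9.30, 8.94 and 9.89 in control + HMB, which did not overlap. In DIO it read 9.45, 10.48 and 9.99, and in DIO + HMB 9.49, 9.50, 9.32 and 9.44, where DIO replicate 1 lay among the HMB tumors. Srcin1, an inhibitor of Src kinase, differed by -0.61 ± 0.14 (-0.37 when its probe sets were averaged), Psg17, a pregnancy-specific glycoprotein, by -0.60, and St13, a cochaperone of Hsp70, by -0.24 ± 0.08. Of the 17 lower genes 7 had means at or below the low-signal level, among them Nefm (-0.50), a neurofilament subunit, Gpr158 (-0.63, or -0.23 when its probe sets were averaged) and Bco1 (-0.52), against 1 of the 17 higher genes. The remaining lower genes were Caly, Snhg11, Fundc2, Jmy, Nol4, Lrrc75b, Tex33 and Nap1l5, at -0.67 to -0.28. When probe sets were averaged, Snhg11 was at -0.27 and Fundc2 at -0.23. The width-adjusted difference was -0.21 for ND6, -0.38 for Snhg11, -0.18 for Jmy, -0.29 for Lrrc75b and -0.30 for Nap1l5.

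Outside the naming rule, and singled out after their values were seen, 3 genes that separated in both diets had differences above 1. Igkv4-70, an immunoglobulin kappa variable segment, read 1.33, 1.66 and 1.27 in control against 1.91, 1.86 and 4.35 in control + HMB, and 1.62, 1.87 and 1.96 in DIO against 7.27, 3.14, 2.07 and 4.39 in DIO + HMB. The un-supplemented tumors were all below the low-signal level, and a few HMB tumors were far above it, for an averaged difference of 1.85 ± 0.70 (limma adjusted p = 0.291). Rasgrp2, an activator of the GTPase Rap1 in blood cells, differed by 1.20 and Treml2, a receptor of myeloid and lymphoid cells, by 1.10. All 3 were highest in DIO + HMB replicate 1, and without that tumor the differences were 1.34, 0.88 and 0.78. Width-adjusted, Igkv4-70 was at 3.44 and Rasgrp2 at 1.89.

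Functional and cell type lists were then read against all genes. Of 897 list members other than odorant receptors, 113 (12.6%) were higher and 45 (5.02%) lower at an unadjusted p under 0.05, against 8.1% and 5.75% of all genes. In both diets 13 (1.45%) separated as higher and 2 (0.223%) as lower, against 0.631% and 0.415% of all genes, so the lower members were no more frequent than in the whole table. Of the 49 lists, 38 had a median above that of all genes, 34 a median above 0 in both diets and 8 below 0 in both. Most members of most lists lay above the low-signal level. At an unadjusted p under 0.05, 1724 of the 14284 genes above it were higher and 586 lower. At or below it 73 were higher and 689 lower. Among genes above the level the share higher was thus larger than the 8.1% of all genes given beside the lists. The share lower was smaller than the 5.75% of all genes. The median of all genes above the low-signal level was 0.0701, so list medians near this value do not stand out from expressed genes. Of all genes 52.0% were higher on average, and in the 3 highest of 5 equal groups by signal 63.8%, 70.3% and 63.5%. Counts of list members higher or lower are to be read against these shares. Members share tumors and are not replicates. No list member passed the adjusted test, and no list was tested as a set.

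**Figure D3:**
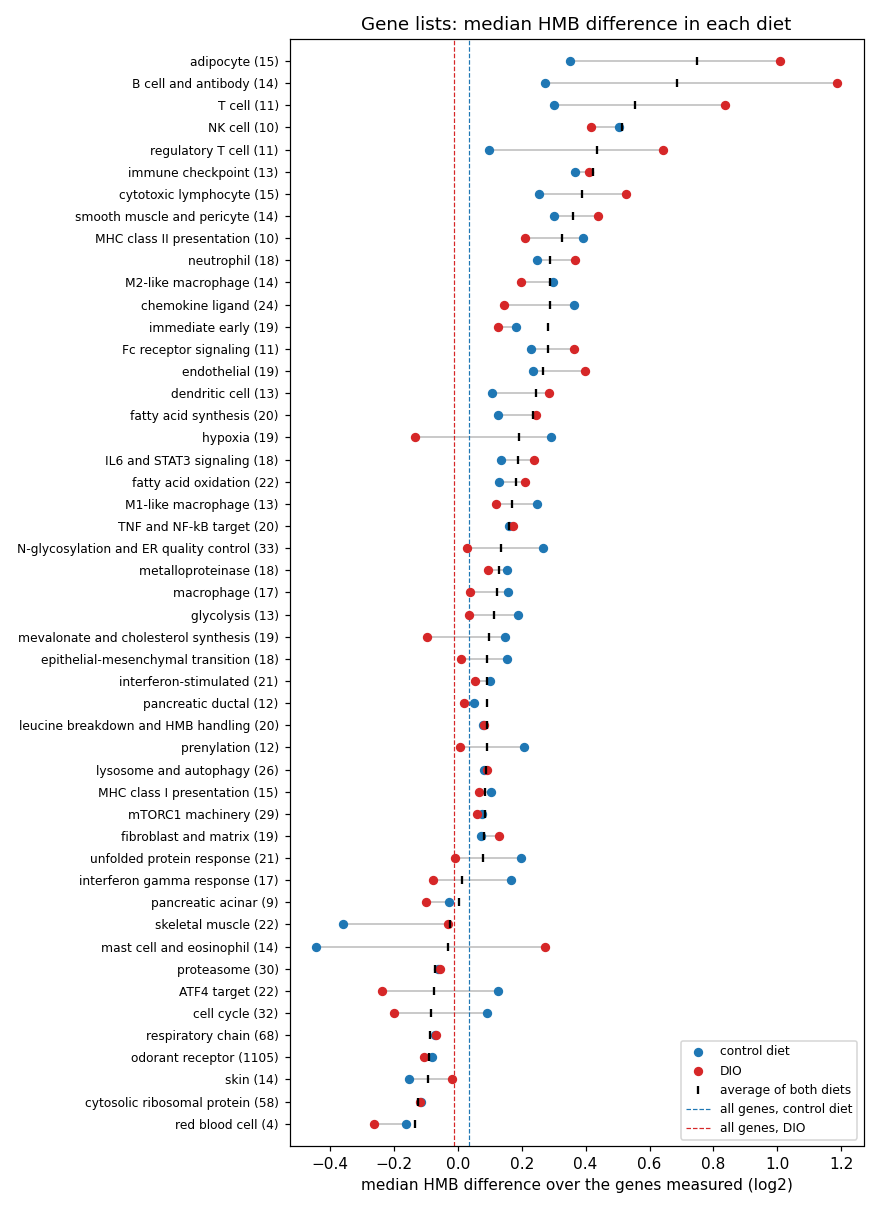
Median log2 HMB difference of the members of each list, in the control diet, in DIO and averaged over both. For reference, the median of all genes was 0.0355 in the control diet, -0.0114 in DIO and 0.0103 averaged. Lymphocyte, vessel and adipocyte lists lie to the right, and the ribosomal, respiratory chain and proteasome lists to the left. Mast cell and eosinophil genes lie at -0.445 in the control diet and 0.273 in DIO, with an averaged -0.032 (-0.969 when width-adjusted).

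Leucine breakdown and HMB handling, the pathway HMB itself belongs to, had a median difference of 0.090 over 20 genes. Of these, 10 were higher in both diets (50%, against 32.1% of all genes). The median was 0.036 without DIO replicate 2 and -0.061 when width-adjusted. Mccc1, a subunit of the carboxylase that follows the leucine keto acid toward HMG-CoA, separated in both diets. It read 6.30, 6.18 and 6.28 in control against 6.50, 6.57 and 6.78 in control + HMB, and 6.35, 6.46 and 6.19 in DIO against 6.62, 6.81, 6.54 and 6.55 in DIO + HMB, a difference of 0.33 ± 0.09. Dbt, the transacylase subunit of the branched-chain keto acid dehydrogenase, also separated, with 6.88, 7.26 and 7.26 against 7.43, 7.55 and 7.40 in the control diet and 7.29, 7.24 and 7.38 against 7.48, 7.40, 7.56 and 7.65 in DIO, a difference of 0.28 ± 0.09 (0.16 when width-adjusted). Bckdk, the kinase that inactivates that dehydrogenase, differed by 0.23 with an unadjusted p of 0.078, and by -0.05 with the width as a covariate. Slc5a8, a monocarboxylate transporter, differed by -0.28, by -0.15 without DIO replicate 2 and by 0.03 with the width as a covariate, at a level below the low-signal value in all tumors but DIO replicate 2.

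The mTORC1 list (29 genes) had a median of 0.085, or -0.037 with the width as a covariate, with 8 members higher (27.6%, against 8.1% of all genes) and 3 lower (10.3%, against 5.75%) at an unadjusted p under 0.05. In both diets 16 were higher (55.2%, against 32.1%) and 7 lower (24.1%, against 28.8%). Leaving out 1 array, the median was 0.048 (without DIO replicate 2) to 0.141 (without DIO replicate 3). Its members included regulators of opposite effect. Deptor, an inhibitor of mTOR, differed by 0.33 ± 0.13, Sesn2, a leucine sensor that restrains mTORC1, by 0.42 ± 0.18 and Sar1b, another leucine sensor, by 0.33 ± 0.10. Their width-adjusted differences were 0.007, -0.14 and 0.13. Rragb, a GTPase that brings mTORC1 to the lysosome, differed by 0.77 ± 0.25 at a low signal, and Lamtor4, a subunit of its lysosomal anchor, by -0.33 ± 0.12, of which -0.60 in the control diet and -0.05 in DIO. Width-adjusted, they were at 0.51 and -0.13.

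Enzymes of mevalonate and cholesterol synthesis had medians of opposite sign in the 2 diets. Their median was 0.147 in the control diet and -0.098 in DIO, with 6 of 19 higher in both (31.6%, against 32.1% of all genes). The averaged median of 0.096 was -0.026 without control replicate 1 and -0.187 when width-adjusted. Nsdhl and Hsd17b7, which act on sterols late in the pathway, differed by 0.36 (0.23 without DIO replicate 2, -0.02 when width-adjusted) and 0.44 (0.14 when width-adjusted), and in both genes the difference was larger in the control diet (0.67 for each) than in DIO (0.06 and 0.21). The prenylation list, downstream of mevalonate, had a median of 0.090, with Icmt, which methylates prenylated proteins, at 0.26 ± 0.11. Width-adjusted, both values were just below 0, at -0.020 and -0.008, and the list median was 0.045 without control replicate 3.

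In interleukin-6 and STAT3 signaling, 16 of 18 genes were higher, with a median of 0.188 (control diet 0.137, DIO 0.238). In both diets 13 were higher (72.2%, against 32.1% of all genes). Stat3 itself read 9.46, 9.69 and 9.73 in control and 10.15, 10.46 and 9.87 in control + HMB. In DIO it read 10.05, 9.74 and 9.96, and in DIO + HMB 10.13, 10.26, 10.27 and 10.06, so that both diets were separated, by 0.40 ± 0.11 on average. The gap between the highest DIO and the lowest DIO + HMB tumor was narrow. Il6ra, the receptor subunit that binds interleukin-6, read 8.63, 8.51 and 8.32, then 8.82, 9.20 and 8.67 with HMB in the control diet, and 8.86, 8.15 and 8.78, then 9.15, 9.08, 9.06 and 9.07 with HMB in DIO. It differed by 0.45 ± 0.13. The shared signaling subunit Il6st differed by 0.29 ± 0.09 and Lifr, the receptor of the related leukemia inhibitory factor, by 0.54 ± 0.25. The width-adjusted list median was 0.121, with Stat3 at 0.12, Il6ra at 0.14 and Lifr at 0.86, and leaving out control + HMB replicate 3 gave a median of 0.297.

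Chemokine ligands had a median of 0.287, with 18 of 24 higher and 13 higher in both diets (54.2%, against 32.1% of all genes). The median was 0.135 without DIO replicate 3 and 0.125 when width-adjusted. Cxcl13, which attracts B cells, differed by 1.57 ± 0.52. It read 5.41, 5.91 and 5.65 in control against 6.56, 7.44 and 6.61 in control + HMB, and 5.87, 6.72 and 4.94 in DIO against 10.23, 6.39, 7.29 and 7.14 in DIO + HMB, where DIO + HMB replicate 1 was far above the rest and replicate 2 lay below 1 DIO tumor. Ccl5, which attracts T cells, differed by 0.76 ± 0.31. The width-adjusted difference was 2.39 for Cxcl13 and 0.34 for Ccl5.

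Neutrophil genes had a median of 0.288, with 6 of 18 members higher (33.3%, against 8.1% of all genes) and 2 lower (11.1%, against 5.75%) at an unadjusted p under 0.05. Mmp9, a gelatinase stored in neutrophil granules, differed by 0.85 ± 0.26 and Itgb2l, a neutrophil integrin subunit, by 0.33 ± 0.09, the latter separated in both diets but at a low signal. Ly6g, the surface antigen that defines mouse neutrophils, differed by -0.53 ± 0.17. Its values were 4.11, 3.02 and 3.26 in control against 2.67, 2.38 and 2.62 in control + HMB, and 2.93, 2.96 and 2.59 in DIO against 2.81, 2.32, 2.86 and 2.70 in DIO + HMB. The defining marker was thus at or below the low-signal level in all tumors but control replicates 1 and 3, and the neutrophil list did not have 1 direction.

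Lymphocyte lists had the highest immune medians. All 11 T cell genes (median 0.554), all 15 cytotoxic genes (0.390) and all 11 regulatory T cell genes (0.435) were higher with HMB. So were all 13 checkpoint genes (0.423) and 9 of 10 NK cell genes (0.513), where 52.0% of all genes were higher. In the order given, 81.8%, 86.7%, 81.8%, 84.6% and 80% were higher in both diets, against 32.1% of all genes. At an unadjusted p under 0.05, 27.3% of T cell, 33.3% of cytotoxic, 27.3% of regulatory T cell and 38.5% of checkpoint genes were higher, against 8.1%. Of these lists the NK cell list had 6 members at an unadjusted p under 0.05 (60.0%, against 8.1% of all genes), with medians of 0.506 in the control diet and 0.416 in DIO, and 0.154 with the width as a covariate. The T cell median was 0.302 in the control diet and 0.837 in DIO, and 0.335 without DIO + HMB replicate 1. Without control + HMB replicate 2 the regulatory T cell median was 0.153, with the width as a covariate it was 0.034, and without DIO replicate 3 the checkpoint median was 0.220. Without control replicate 1 the cytotoxic median was 0.256 and the NK cell median 0.330.

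Eomes, a transcription factor of NK and memory T cells, read 4.19, 3.80 and 4.69 in control against 4.81, 5.29 and 4.60 in control + HMB, and 4.16, 4.33 and 4.17 in DIO against 5.31, 5.14, 4.54 and 4.54 in DIO + HMB. DIO tumors were separated and lean tumors overlapped by 1 pair of values, with an averaged difference of 0.67 ± 0.18. The NK receptors Klrd1 (0.70 ± 0.20), Ncr1 (0.90 ± 0.32) and Cd244a (0.54 ± 0.19) and the granule proteases Gzmk (0.54 ± 0.21) and Ctsw (0.58 ± 0.22) differed in the same direction in both diets. In T cells, Ubash3a, a phosphatase that limits receptor signaling, differed by 0.84 ± 0.28, the coreceptor Cd6 by 0.81 ± 0.30, the costimulator Cd28 by 0.61 ± 0.24 and the receptor subunit Cd3g by 0.52 ± 0.25. Among inhibitory receptors, Pdcd1 (PD-1) differed by 0.65 ± 0.19 and Ctla4 by 0.60 ± 0.27, or by 0.38 without control + HMB replicate 2. Tox, a factor of exhausted T cells, differed by 0.49 ± 0.16. Width-adjusted, Ncr1 was at 0.18, Cd244a at 0.03 and Ctla4 at 0.33.

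Havcr2 (TIM-3), an inhibitory receptor of T cells and myeloid cells, differed by 1.00 in the control diet and 0.20 in DIO. It read 6.61, 6.27 and 6.78 in control and 7.35, 7.71 and 7.61 in control + HMB, which did not overlap. The DIO tumors, 7.17, 7.21 and 7.34, overlapped those of DIO + HMB, 7.13, 7.49, 7.81 and 7.34. Ccr8, a chemokine receptor of tumor regulatory T cells, differed by 0.67 ± 0.29, by 0.39 without control replicate 2 and by 0.03 when width-adjusted.

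B cell and antibody genes were higher in all 14 members, with a median of 0.685 (0.274 in the control diet and 1.19 in DIO). A score per tumor, the mean over members of the distance from each gene's mean over all arrays, separated HMB from un-supplemented tumors in both diets for 2 of the 49 lists, this list and endothelial genes. The B cell score ran from -0.369 to -0.303 in control against -0.223 to 0.212 in control + HMB, and from -0.548 to -0.465 in DIO against -0.390 to 3.34 in DIO + HMB, where replicate 1 held the highest value. Without that tumor the median of the list was 0.234. Ighm, the heavy chain of IgM, read 8.85, 8.96 and 9.08 in control against 9.60, 9.63 and 9.05 in control + HMB, and 9.07, 8.17 and 8.32 in DIO against 11.27, 9.57, 9.27 and 9.23 in DIO + HMB. DIO tumors were separated, and the lean groups overlapped narrowly. Jchain, which links IgM and IgA into polymers, differed by 1.14, or by 0.68 without DIO + HMB replicate 1. Width-adjusted, the list median was 1.28 and Jchain was at 2.32. How far lymphoid tissue in that tumor entered these values was not tested.

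All 10 genes of MHC class II presentation were higher in both diets (100%, against 32.1% of all genes), with a median of 0.325, or 0.172 without DIO + HMB replicate 1. H2-DMb1, which helps load peptides, was separated in both diets with 4.49, 5.17 and 4.62 in control against 5.53, 5.88 and 5.19 in control + HMB, and 4.81, 4.45 and 5.19 in DIO against 5.34, 5.31, 5.76 and 5.24 in DIO + HMB, a difference of 0.69 ± 0.17, or 0.38 when width-adjusted. H2-Aa, a chain of the class II molecule itself, differed by 0.23 ± 0.08, by 0.14 when width-adjusted and by -0.03 with the arrays scaled to 1 width. That scaling also set every array to the same median over genes. All 11 genes of Fc receptor signaling were higher, with a median of 0.281: the phosphatase Inpp5d (SHIP1) by 0.40 ± 0.11, separated in both diets, the activating receptor Fcgr4 by 0.53 ± 0.21 and the kinase Btk by 0.42 ± 0.17. Width-adjusted, the list median was 0.109 and Fcgr4 was at 0.01.

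Macrophage genes were mixed. Their median was 0.122, with 12 of 17 higher, and it was 0.046 without control replicate 2 and 0.003 when width-adjusted. Cd68 and Itgam (CD11b) differed by 0.24 ± 0.10 and 0.46 ± 0.17 while Aif1 (IBA1) differed by -0.30 ± 0.13. The M2-like list had a median of 0.288, which was 0.017 without DIO replicate 3, and the M1-like list 0.171, which width-adjusted were 0.046 and -0.042. Width-adjusted, Cd68 was at -0.006 (-0.011 with the arrays scaled to 1 width), Itgam at 0.02 and Aif1 at -0.13. Chil3 (Ym1), an M2 marker of mice, differed by 0.97 ± 0.34 at a level below the low-signal value in most tumors, and Il12b, made by inflammatory macrophages and dendritic cells, by 0.72 ± 0.31 (0.48 without control + HMB replicate 2). Their width-adjusted differences were 2.09 and 0.05. Among dendritic cell genes, Itgax (CD11c) differed by 0.32 ± 0.12, or by 0.15 when width-adjusted, and Cd209a, a lectin of monocyte-derived dendritic cells, by -0.82 ± 0.25. Cd209a read 8.73, 8.43 and 8.70 in control against 7.67, 6.87 and 8.37 in control + HMB, and 7.80, 9.21 and 8.28 in DIO against 7.92, 7.61, 7.74 and 7.80 in DIO + HMB. Lean tumors were separated, and in DIO they overlapped; with the width as a covariate the difference was 0.007, and it was -0.38 when the probe sets of the gene were averaged.

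Vessel genes were higher in 18 of 19 endothelial and 13 of 14 smooth muscle and pericyte members, with medians of 0.265 and 0.361 (the latter 0.226 without DIO replicate 3). The endothelial score ran from -0.233 to -0.128 in control against -0.0942 to 0.275 in control + HMB, and from -0.186 to -0.0781 in DIO against -0.0700 to 0.650 in DIO + HMB, without overlap in either diet, although the gap in DIO was narrow. Eng (endoglin), a coreceptor of TGF-beta in endothelium, read 8.16, 8.11 and 7.92 in control against 8.20, 8.74 and 8.24 in control + HMB, and 8.29, 8.29 and 7.89 in DIO against 8.30, 8.89, 8.65 and 8.38 in DIO + HMB. It separated by small gaps and differed by 0.37 ± 0.13. Nos3, the nitric oxide synthase of endothelium, differed by 0.42 ± 0.13, Plvap, a protein of its fenestrae, by 0.48 ± 0.16 and Pecam1 (CD31) by 0.43 ± 0.15. Width-adjusted, Plvap was at 0.24.

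Among pericyte and smooth muscle genes, Abcc9, the regulatory subunit of a potassium channel, was separated in both diets. It read 6.30, 6.24 and 6.38 in control against 6.56, 6.58 and 6.70 in control + HMB, and 6.45, 6.29 and 6.60 in DIO against 7.03, 7.60, 6.65 and 6.65 in DIO + HMB, a difference of 0.42 ± 0.14. Its channel partner Kcnj8 differed by 0.50 ± 0.17 and the smooth muscle myosin Myh11 by 0.52 ± 0.17. Acta2, smooth muscle actin, differed by 0.83 ± 0.28, and by 0.50 without DIO replicate 3. Fibroblast and matrix genes had a median of 0.082, which was -0.217 without DIO replicate 3 and 0.027 when width-adjusted.

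**Figure D4:**
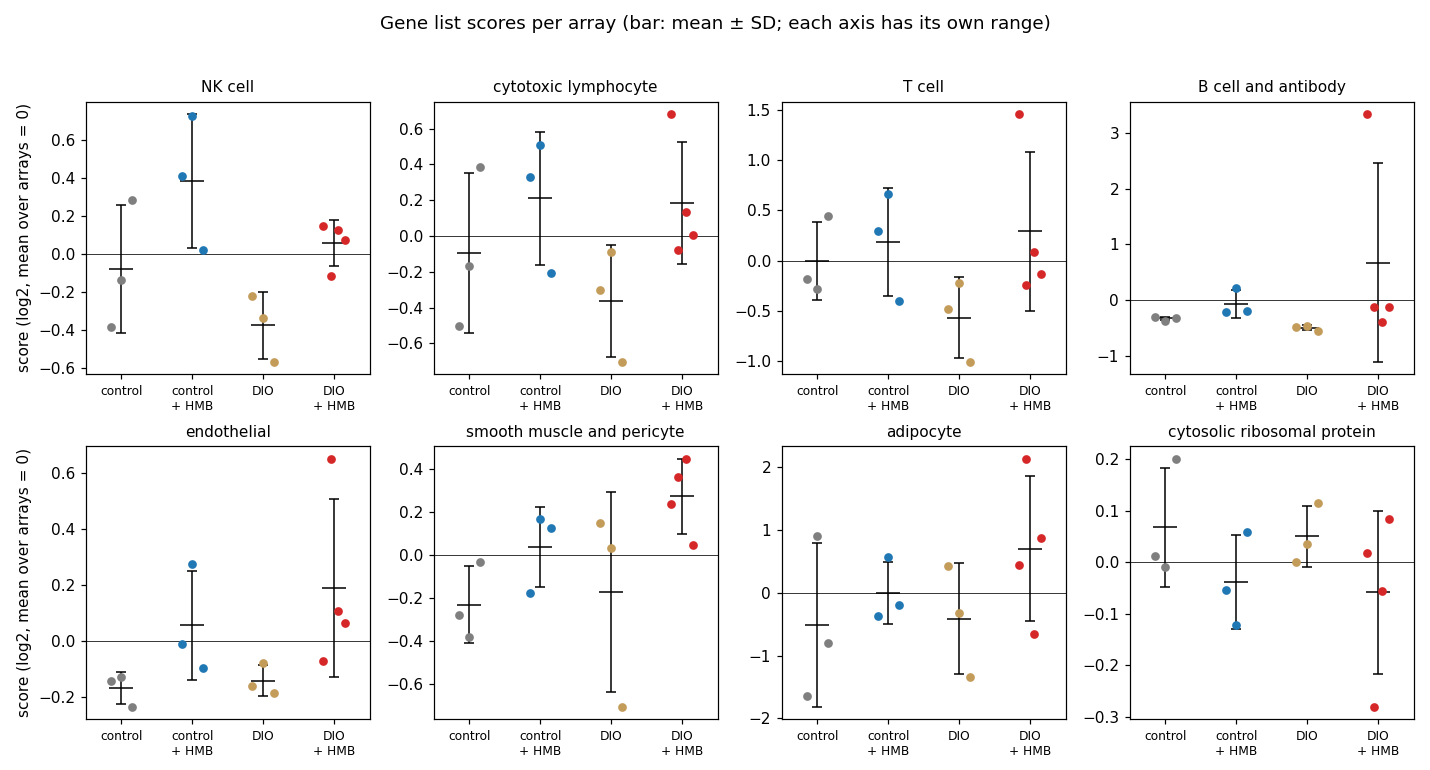
Score of 8 gene lists in each tumor (log2; the mean over members of the distance from each gene's mean over the 13 arrays), by group, with bars for the mean ± SD and an own y axis per panel. B cell and endothelial scores of the HMB tumors lie above the un-supplemented tumors in both diets, with 1 DIO + HMB tumor at 3.34 in the B cell panel, and the other lists overlap in at least 1 diet.

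Adipocyte genes had the highest median of all lists, 0.748, with 15 of 15 higher. At an unadjusted p under 0.05, 2 members were higher (13.3%, against 8.1% of all genes). The median was 0.352 in the control diet and 1.01 in DIO, and 0.474 without DIO + HMB replicate 2, whose adipocyte score was 2.13. Pparg, the master regulator of fat cells, differed by 0.73 ± 0.29 and Lipe, hormone-sensitive lipase, by 0.48 ± 0.21, and Pparg by 0.35 when width-adjusted. Plin4, a lipid droplet coat protein, differed by 0.54, or by 0.36 without DIO + HMB replicate 2. Car3, carbonic anhydrase of fat and muscle, read 5.60, 11.60 and 9.24 in control and 9.36, 10.81 and 9.72 in control + HMB. DIO tumors read 11.20, 9.68 and 6.64, against 10.88, 12.45, 11.09 and 11.39 with HMB. The spread within the un-supplemented groups was wider than the averaged difference of 1.71 ± 0.89, which was 0.91 without control replicate 1 and 1.08 without DIO replicate 3 and 0.95 when width-adjusted. Fat around the tumors, and its part in these values, was not tested.

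Fatty acid synthesis genes were higher in 19 of 20 (median 0.234, or -0.0008 with the width as a covariate) and oxidation genes in 18 of 22 (0.182, or 0.075 when width-adjusted). In both diets 15 of the 22 oxidation genes were higher (68.2%, against 32.1% of all genes). Pdk4, the kinase that shuts pyruvate dehydrogenase when fat is burned, differed by 1.33 ± 0.47. It read 3.69, 5.01 and 4.96 in control against 5.03, 6.67 and 4.86 in control + HMB, and 6.72, 4.91 and 4.81 in DIO against 5.87, 8.40, 7.53 and 6.93 in DIO + HMB, with overlap in both diets, and it differed by -0.05 with the width as a covariate. Slc25a20, the mitochondrial carnitine carrier, differed by 0.38 ± 0.11 and Hadhb, of the trifunctional protein of beta-oxidation, by 0.33 ± 0.13, and Slc25a20 by 0.16 when width-adjusted. In synthesis, the acyltransferase Gpam differed by 0.41 ± 0.13 and the elongase Elovl1 by 0.32 ± 0.12, and each by -0.03 with the width as a covariate.

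In the secretory route, 29 of 33 genes of N-glycosylation and endoplasmic reticulum quality control were higher, with a median of 0.267 in the control diet and 0.028 in DIO, and an averaged 0.135 that was -0.039 with the width as a covariate. Edem1, which sends misfolded glycoproteins to degradation, separated in both diets with 7.21, 7.74 and 7.91 in control against 8.03, 8.21 and 8.06 in control + HMB, and 8.01, 7.79 and 7.85 in DIO against 8.39, 8.09, 8.32 and 8.23 in DIO + HMB. It differed by 0.43 ± 0.12, but by 0.08 when its probe sets were averaged and by 0.25 when width-adjusted. Alg11, a mannosyltransferase, also separated in both diets (0.41 ± 0.10). Sel1l, which holds the degradation complex together, Mgat2, a Golgi transferase, and Xbp1, a transcription factor of the unfolded protein response, differed by 0.26 ± 0.10, 0.38 ± 0.12 and 0.31 ± 0.11, and width-adjusted by -0.0002, 0.01 and 0.03. Lysosome and autophagy genes were higher in 22 of 26 (median 0.088, which with the arrays scaled to 1 width was -0.011 relative to all genes). Width-adjusted it was 0.002, and without DIO + HMB replicate 2 it was 0.048. Npc1, the lysosomal cholesterol exporter, separated in both diets at 0.32 ± 0.08, and Neu1, lysosomal sialidase, differed by 0.37 ± 0.11.

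Lists of the growth machinery had medians below 0. Cytosolic ribosomal protein genes had a median of -0.125 (control diet -0.116, DIO -0.118), with 43 of 58 lower and 33 lower in both diets (56.9%, against 28.8% of all genes). At an unadjusted p under 0.05, 11 were lower (19.0%, against 5.75%) and 1 higher (1.72%, against 8.1%). The median was -0.081 without control replicate 3 and -0.075 when width-adjusted. Rps20 was separated in both diets: it read 5.67, 5.93 and 5.84 in control against 5.52, 4.96 and 5.64 in control + HMB, and 5.42, 5.61 and 5.78 in DIO against 5.14, 4.41, 4.55 and 5.20 in DIO + HMB, a difference of -0.61 ± 0.16. Rps28 differed by -0.55 ± 0.15, and by -0.26 when its probe sets were averaged, and Rps27 was the exception at 0.68 ± 0.20. The width-adjusted differences of these 3 genes were -0.34, -0.30 and 0.41. Ribosomal protein genes have many processed copies in the genome, so their probe sets may also read related sequences.

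The respiratory chain list had a median of -0.088, or -0.050 without control replicate 3, with 44 of 68 lower. At an unadjusted p under 0.05, 14 were lower (20.6%, against 5.75% of all genes) and 1 higher (1.47%, against 8.1%). Ndufa1 (-0.37 ± 0.11) and Ndufb10 (-0.35 ± 0.11), accessory subunits of complex I, and Atp5l (-0.32 ± 0.10), of ATP synthase, were among the lower members. Atp5l read 8.73, 8.82 and 8.91 in control against 8.57, 8.24 and 8.79 in control + HMB, and 8.56, 8.73 and 8.76 in DIO against 8.48, 8.22, 8.27 and 8.33 in DIO + HMB. DIO tumors were separated, and the lean groups overlapped by 1 tumor. Width-adjusted, the 3 genes were at -0.20, -0.14 and -0.15. Proteasome genes, whose activity HMB is known to limit in muscle, were lower in 22 of 30, with a median of -0.072, or -0.045 without control replicate 3 and -0.118 without control replicate 1. Psmc6, a subunit of the regulatory cap, was at -0.26 ± 0.10, and at -0.06 when width-adjusted. Cell cycle genes had a median of 0.092 in the control diet and -0.199 in DIO. In both diets 1 of 32 was higher (3.1%, against 32.1% of all genes) and 9 were lower (28.1%, against 28.8%). The averaged median of -0.084 was -0.021 without DIO replicate 3 and -0.327 when width-adjusted.

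Other tumor genes included Snai1, a driver of the epithelial-mesenchymal transition, at 1.04 ± 0.32, and Lgals1 (galectin-1) at -0.20 ± 0.08. Snai1 read 4.11, 4.32 and 5.88 in control and 5.28, 5.56 and 5.48 in control + HMB, with overlap, and 4.84, 4.31 and 3.68 in DIO against 5.49, 4.83, 6.11 and 6.31 in DIO + HMB, with 1 overlapping pair. Lgals1 was separated in both diets as lower, with 11.65, 11.69 and 11.82 against 11.56, 11.52 and 11.62 in lean tumors and 11.73, 11.68 and 11.95 against 11.44, 11.49, 11.61 and 11.65 in DIO tumors. Dusp1, an immediate early phosphatase of MAP kinases, differed by 0.62 ± 0.15. ATF4 targets had opposite medians, 0.127 in the control diet and -0.238 in DIO, and Trib3, a pseudokinase among them, differed by 0.10 and -0.81 while Atf5 differed by -0.12 and -0.42. Width-adjusted, Snai1 was at 0.37, Dusp1 at 0.15 and the ATF4 target median at -0.301, against -0.076 without the covariate.

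The direction of the averaged difference followed the signal level of a gene. Genes were ranked by mean level and divided into 5 groups of equal size. In the 2 lowest the median difference was -0.085 and -0.072, with 28.4% and 34.0% of genes higher. In the 3 highest, from the middle up, it was 0.083, 0.099 and 0.058, with 63.8%, 70.3% and 63.5% higher. With an unadjusted p under 0.05, 1724 higher and 586 lower genes lay above the low-signal level, and 73 higher and 689 lower at or below it. The 1105 odorant receptors, which served as the reference of low signal, had a median of -0.092, or 0.001 when width-adjusted.

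The width of an array, the SD over all genes within it, also differed with HMB. It was 2.52 ± 0.0186 in control and 2.60 ± 0.0221 in control + HMB tumors, and 2.56 ± 0.0440 in DIO and 2.60 ± 0.0186 in DIO + HMB tumors (mean ± SD, n = 3, 3, 3 and 4). Lean tumors did not overlap, while DIO replicate 1 reached 2.60 and lay among the DIO + HMB tumors. The averaged difference was 0.0568 (control diet 0.0727, DIO 0.0409; two-sided exact permutation of HMB labels within each diet, p = 0.00857 over 700 labelings, where 0.00143 is the smallest possible). With the width as a covariate in limma the split at an unadjusted p under 0.05 was 402 higher and 469 lower. Scaling all arrays to 1 width also set each array to the same median over genes, which had run from 4.27 to 4.65. After both steps the split was 364 higher and 3505 lower, around a median of all genes of -0.125. Of 125 genes followed through the alternatives, 65 moved by over 1.5 times with the covariate and 11 of them turned direction. Scaling moved 56 by over 1.5 times and turned 2. None of the 34 genes described first turned direction in either. The parts of the width and of the array medians in the counts of higher and lower genes were not tested.

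**Figure D5:**
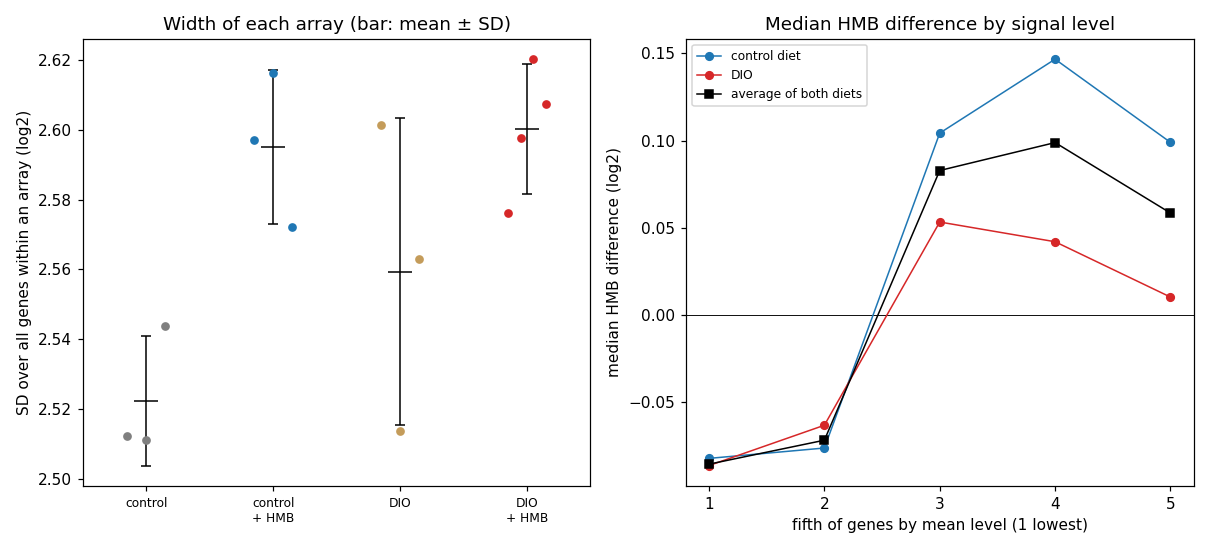
Left, the SD over all genes within each array (log2 units) by group, with bars for the mean ± SD; right, the median log2 HMB difference in each of 5 equal groups of genes ranked by mean level, for the control diet, DIO and their average. Lean HMB arrays lie above lean un-supplemented arrays, and the averaged median goes from -0.085 in the lowest group to 0.099 in the next to highest.

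The difference of the HMB effect between diets was tested in the same fit, and no gene passed (0 of 22180, 0%; lowest limma adjusted p = 0.933). An unadjusted p under 0.05 was found for 1068 genes (4.82%), where 1109 would be 5%. The contrasts within each diet had 2537 genes at an unadjusted p under 0.05 in the control diet and 1571 in DIO. In both contrasts 124 genes were past that level as higher, 87 as lower and 31 in opposite directions. The larger control-diet differences of Kctd21, Ggps1, Havcr2 and ND6 are therefore not shown to differ from those in DIO.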

How the data were processed

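Whole-tumor RNA of 13 tumors was read on Affymetrix Mouse Gene 2.1 ST arrays, 1 tumor per mouse and array. The submitters' processing notes name RMA, affy and limma, and the range of the deposited values is that of a log2 scale, as RMA gives. RMA brings arrays processed together to 1 distribution at the probe level, which removes differences in total RNA; whether all 13 arrays were processed together was not stated. Versions of the authors' tools and the genome build behind the probe sets were not given in the sources used here. Of 41345 probe sets, 23521 had 1 gene symbol in the platform annotation, 1820 had several and 16004 had none; the last 2 kinds were left out. Genes with more than 1 probe set (1082) were read by the probe set of highest mean, which left 22180 genes with no filter on low values. Over all probe sets, array medians ran from 3.65 to 3.75 and correlations between arrays from 0.960 to 0.983. No 2 arrays shared more than 55 identical values. Over the 22180 genes the array medians were less level, at 4.27 to 4.41 in control and 4.41 to 4.65 in control + HMB. They were 4.28 to 4.54 in DIO and 4.48 to 4.57 in DIO + HMB. The number of arrays limits the precision.

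A model with 1 mean per group was fitted to all 13 arrays with lmFit and eBayes of limma 3.58.1 (R 4.3.3), and the averaged, within-diet and between-diet contrasts were taken from it, two-sided, with Benjamini-Hochberg adjustment over all genes. SE is the moderated standard error. The script was tested on simulated data. Groups came from the sample titles. The first named genes had the same direction in both diets. In each direction they were the 12 of lowest unadjusted p in the averaged contrast and 8 genes whose arrays do not overlap. These 8 had the largest smaller gap of the 2 diets. Up to 4 members of each list were added by lowest p, also where the diets had opposite directions, as in Trib3. Unnamed gene models, odorant and vomeronasal receptors, small RNAs and immunoglobulin or T cell receptor segments were skipped. The members and the lists were chosen with earlier results of these data known. Alternatives were another rule for probe sets, filters on low signal and other error models. Others were the width of the arrays as a covariate, a replicate block and leaving out each array. In another, each array was set to the same median over genes and then scaled to 1 width. Sequences came from RefSeq (GRCm38.p6).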

Additional observations from a re-analysis of the deposited data

Results flagged for a closer look

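Within the 4 DIO + HMB tumors, 14 values lay far from the other 3 of their group (the gap to the nearest value, over the whole range, was above Dixon's 95% critical value). In 125 genes and 49 list scores, chance flags about 1 in 20 groups. The groups of 3 were not tested. In DIO + HMB replicate 1 these were Cd3g (9.04), Ctsw (7.89), Icosl (8.40), Ighm (11.3), Il6ra (9.15) and Rasgrp2 (6.65), all as log2 values and all the highest of the group. In the same tumor the scores of B cell and antibody genes (3.34), dendritic cell genes (0.420) and pancreatic ductal genes (0.944) were the highest and that of leucine breakdown and HMB handling (-0.128) stood apart as the lowest. In replicate 4 they were Nlrp10 (2.92) and Zbtb10 (4.52), and in replicate 3 the scores of skeletal muscle genes (3.05) and immediate early genes (0.536). Without replicate 1 the averaged B cell median was 0.234, against 0.685 with it.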

How the results depend on the processing

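No gene passed the adjusted test of the averaged difference under any alternative run, and the lowest limma adjusted p over them was 0.0724, without DIO replicate 1. The difference between diets had no passing gene under the 24 alternatives that could fit it; the additive model has no such term. At an unadjusted p under 0.05 the split of 1797 higher and 1275 lower genes (58.5% higher) became 1708 and 457 (78.9%) without low-signal genes, 1766 and 602 (74.6%) above the odorant receptor level, 402 and 469 (46.2%) with the width as a covariate, and 364 and 3505 (9.41%) with the arrays scaled to 1 width. Leaving out 1 array gave 1146 (without control + HMB replicate 2) to 2100 (without DIO replicate 1) higher and 934 to 1599 lower genes. Genes without overlap were then 157 to 475 higher and 115 to 282 lower, since fewer tumors overlap less, and 516 and 222 with DIO + HMB replicates 1 and 2 left out together, a choice made after seeing the data. With low-signal genes left out 32 of the lower ones were counted, above the odorant receptor level 44, and with scaled arrays 17 higher and 269 lower. The scaled arrays were also set to the same median over genes. The difference in width was 0.0454 to 0.0674 on leaving out 1 array.

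With the width as a covariate the averaged difference turned to -0.0527 in Bckdk, 0.00712 in Cd209a, -0.00591 in Cd68, -0.0318 in Elovl1, -0.0330 in Gpam, -0.00810 in Icmt, -0.0197 in Nsdhl, -0.0483 in Pdk4, -0.000151 in Sel1l, -0.137 in Sesn2 and 0.0253 in Slc5a8. With the arrays set to the same median and scaled to 1 width it turned to -0.0109 in Cd68 and -0.0286 in H2-Aa. The cause was not tested. The other 3074 gene values kept their direction.

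Same-numbered tumors did not deviate together more often than others (3 of 18 pairs with a correlation over 0.1, against 11 of 45 other pairs). The highest correlation was 0.297 among same-numbered pairs and 0.314 among other pairs. With so few tumors per group these counts cannot decide whether the numbers pair the samples. With the replicate block there were 1513 higher and 1171 lower genes at an unadjusted p under 0.05 and none past the adjusted threshold (lowest 0.353). In low-signal genes the arrays may measure mostly background, and the small groups limit every comparison.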
